A study of Mus musculus with 12 samples.

Results

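The forkhead family of transcription factors was described in mouse TPS (totipotent potential stem) and EPS (extended pluripotent stem) cells, the 2 cell types of this RNA sequencing comparison. All protein-coding genes whose symbol is Fox, a subfamily letter from a to s and a number were taken, which gave 44 members among the 55401 genes of the count files, in 19 subfamilies from FoxA to FoxS. Both cell types grew on feeder cells, TPS cells in VCED medium on the 4C base and EPS cells in LCDM medium. The study keeps TPS cells in a mixture of a retinoic acid receptor agonist (CD1530), a histone deacetylase inhibitor (VPA), a DOT1L inhibitor (EPZ004777) and a GSK3 inhibitor, on inactivated mouse embryo fibroblasts, and derives them from EPS or ES cells or from 2-cell embryos. Which origin the sequenced TPS samples had, and the sex and strain of all samples, are not given in the sources used here. There were 12 libraries of poly-A enriched RNA, named by cell type, a first number from 1 to 3 and a second number. The first number was read as the line and the second as a technical replicate, the counts of the 2 libraries of a line were summed, and 3 TPS lines were compared with 3 EPS lines. The study speaks of numbered cell lines, but how each sequenced line was derived is not given in the sources used here, so the p-values measure only the spread between these samples.

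Forkhead proteins bind DNA through a winged-helix domain in which the third helix lies in the major groove of a short AT-rich core site. Several members, the FoxA proteins above all, bind their sites in closed chromatin and open it for other factors, and FoxD3 and FoxH1 act in the pluripotent epiblast of the early embryo. Others are switched by signals: FoxO proteins leave the nucleus when insulin and AKT signalling phosphorylates them, FoxH1 carries Smad proteins to the targets of Nodal, FoxM1 drives genes of mitosis and FoxJ1 drives genes of motile cilia.

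To show how alike the members are in the part that reads DNA, the 27 coding bases at the start of the third helix were taken from the GENCODE M21 transcripts (build GRCm38), and 43 of the 44 members held the stretch, Foxr1 being the exception. It is printed 5′ to 3′ on the coding strand for 10 of the 12 members that passed the test between TPS and EPS lines, with the 9 bases that were the same in all 43 members in capitals. In Foxj1 and Foxp4 an intron interrupts the stretch and was left out of the sequence, although the coordinates span it.
Foxa3, chr7:19014687-19014713, minus strand: TGGcagaActccaTccGgCAttcgcTg
Foxc1, chr13:31807571-31807597, plus strand: TGGcagaAcagcaTacGgCAcaaccTc
Foxc2, chr8:121116957-121116983, plus strand: TGGcagaAcagcaTccGcCAcaaccTg
Foxd2, chr4:114908279-114908305, minus strand: TGGcagaAtagcaTccGcCAcaaccTc
Foxd3, chr4:99657147-99657173, plus strand: TGGcagaAcagcaTccGcCAcaaccTg
Foxf1, chr8:121084672-121084698, plus strand: TGGaagaActccgTgcGcCAcaaccTg
Foxh1, chr15:76669253-76669279, minus strand: TGGaaggActccaTccGcCAcaaccTt
Foxj1, chr11:116332457-116334047, minus strand: TGGcagaAttccaTccGcCAcaaccTg
Foxp4, chr17:47871331-47874640, minus strand: TGGaagaAtgccgTgcGcCAcaaccTc
Foxq1, chr13:31559391-31559417, plus strand: TGGcgcaActccgTgcGcCAcaaccTc
Foxc2, which was higher in TPS lines, and Foxd3, which was lower, had the same 27 bases. The 43 stretches came in 35 different forms. Over whole transcripts no member had a near-identical copy among other members (at least 95% identity over at least 50% of the longest transcript), so long stretches of sequence set different members apart. The only such match was between Foxq1 and A530084C06Rik, a gene on the opposite strand of the same place that covers 66.1% of the Foxq1 exons and was at 0 in every line.

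Libraries held 13676051 to 21821707 counts and lines 29877215 to 38466294. Within a gene, values are given as CPM, counts scaled to the line's total times its TMM factor. Between genes, levels are given as TPM, which also divides by the length of all exons. The test was edgeR's quasi-likelihood test over all 17468 genes that passed its filter on low counts, with Benjamini-Hochberg adjustment over all of them and a threshold of 0.05. Of the markers of both cell types, 10 of 10 genes of the 2-cell embryo were higher in TPS lines, and 6 of 10 pluripotency genes were lower. The 10 genes of the 2-cell embryo together had at most 0.199 CPM in an EPS line. This is under the filter of about 0.28 CPM, so they entered the test through their TPS lines only. Zscan4c, Zfp352 and Gm5662 among them were named by the study from its own comparison of TPS and EPS cells. Of 18 fibroblast genes 12 were higher and none lower (median log2 fold change 2.07), and their summed level ranged from 3573 to 6495 CPM over the TPS lines and from 343 to 1453 CPM over the EPS lines. In TPS lines 0 of the 18 were at 0, and 1, Fap, was at 0 in EPS line 1, so genes of fibroblasts, the kind of cell used as feeders, moved with the comparison. Of other lineages, 2 of 7 tested trophoblast markers, 5 of 7 of primitive endoderm, 2 of 6 of neural crest and 2 of 4 of endothelium were higher in TPS lines, where 14.4% of all tested genes were higher and 7.34% lower. The endothelial receptor Tek was lower (log2 fold change −1.13, edgeR adjusted p = 0.0410). In bulk RNA, a change in the number of cells of a type and a change in RNA per cell cannot be told apart.

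All 44 members had a count in at least 1 library, and the summed level of the family was 391 ± 18.2 TPM in TPS lines and 449 ± 48.5 TPM in EPS lines (SD, n = 3 each), with TPS line 3 above EPS line 1. A mean of at least 1 TPM was reached by 23 members in TPS lines and 21 in EPS lines, and of at least 10 TPM by 12 and 10. The 5 highest members held 59.6% of the family's TPM in TPS lines and 65.5% in EPS lines, and the 10 highest held 80.5% and 88.1%. In TPS lines the order opened with Foxk2, a regulator of glycolysis and autophagy genes, at 57.4 ± 3.13 TPM, followed by Foxh1 at 54.0 ± 6.81, Foxo4 at 44.7 ± 3.45, Foxp4 at 42.4 ± 9.37 and Foxo3 at 34.3 ± 6.15 TPM. These neighbours were within reach of each other's spread. In EPS lines the order opened with Foxp4 at 85.5 ± 7.66 and Foxh1 at 83.3 ± 9.87 TPM, which did not differ beyond their spread, then Foxk2 at 53.7 ± 16.5, Foxo4 at 37.9 ± 4.61, Foxd3 at 33.3 ± 4.66 and Foxo3 at 32.4 ± 5.27 TPM. As a share of the family's TPM, Foxp4 held 10.8% ± 1.90 in TPS lines and 19.1% ± 0.580 in EPS lines, moving from rank 4 to rank 1, and Foxd3 held 2.83% ± 1.78 and 7.47% ± 1.34, moving from rank 10 to rank 5. Shares depend on dividing by exon length, since longer genes collect more reads.

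**Figure D1:**
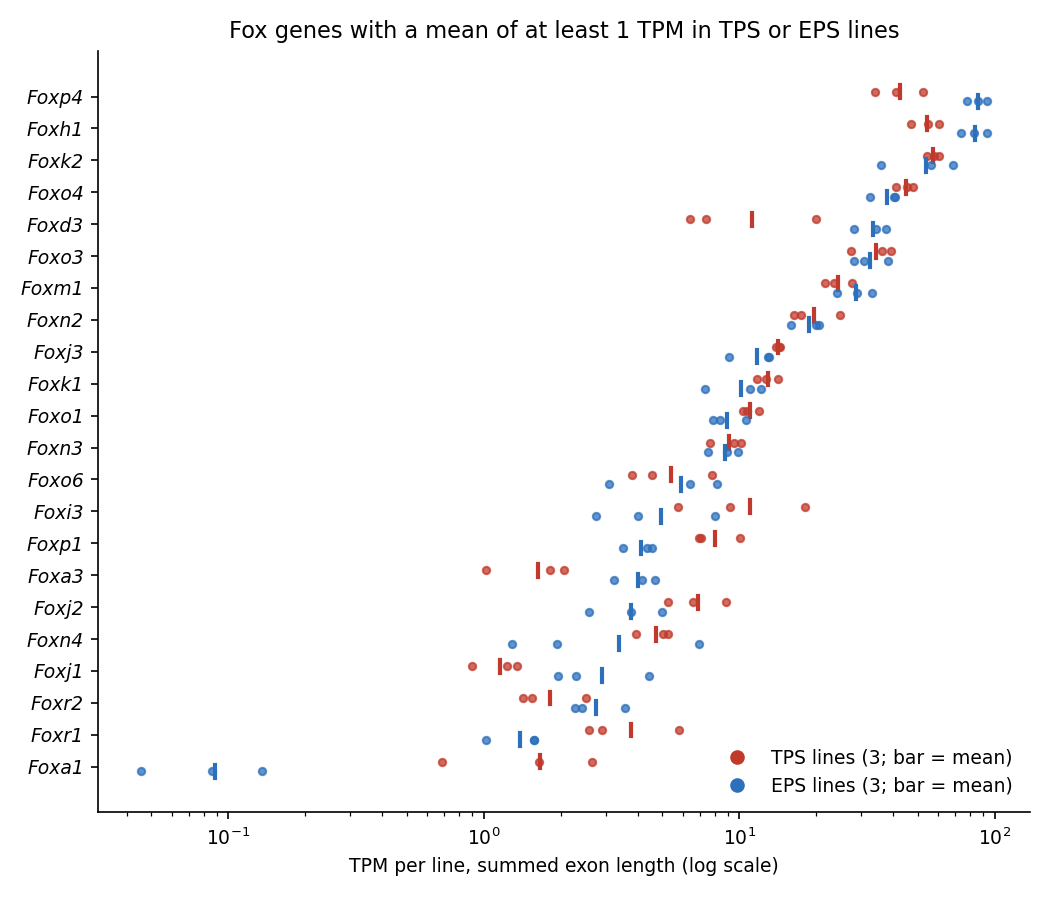
Level of 22 Fox genes with a mean of at least 1 TPM in either group, in TPM on a log axis, ordered by the EPS mean; points are lines (3 TPS in red, 3 EPS in blue) and short bars are means. Foxp4 ran from 33.8 to 52.4 TPM in TPS lines and from 77.5 to 92.8 TPM in EPS lines, whereas most abundant members such as Foxk2, Foxo4 and Foxo3 overlapped between the groups.

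Of the 44 members, 31 passed the filter on low counts and 13 did not. Of the 31, 7 were higher in TPS lines (22.6%; 14.4% of all tested genes were), 5 were lower (16.1%; 7.34% of all tested genes were) and 19 did not pass. With 1 line left out the count of higher members fell to 3 (without TPS line 3, EPS line 1 or EPS line 3). Of all tested genes 8.98%, 9.47% and 10.8% were higher in those fits. The count of lower members fell to 2 (without TPS line 1, TPS line 2, EPS line 1 or EPS line 2). There 3.39%, 4.29%, 4.46% and 4.4% of all tested genes were lower. With technical replicate 1 alone 2 members were higher and 4 lower (12.8% and 6.6% of all tested genes). With technical replicate 2 alone 4 members were higher and 3 lower (12.9% and 6.6% of all tested genes). The filter asks for about 0.28 CPM in 3 lines. Foxa1, Foxa2, Foxc2, Foxd2 and Foxf1 passed it only through TPS lines, so these low members had to differ in order to be tested, also in the fits with a line left out, and 4 of the 7 higher members are among them. Their values in those fits are given as a description. With no filter on low counts, where all members entered, edgeR's adjusted p was 0.000208 for Foxa1, 0.0424 for Foxc2, 0.000545 for Foxd2 and 0.0391 for Foxf1. For Foxa2, which did not pass there either, edgeR's adjusted p was 0.0796. Of the 31 tested members, 10 had all TPS lines above all EPS lines and 6 had all below. Over all tested genes 23.5% and 19.1% did, so the count below was close to the share over all genes. The 10 include Foxa1, Foxa2, Foxc2, Foxd2 and Foxf1, which entered through their TPS lines only. The median log2 fold change was 0.17 over the tested members and −0.0038 over all tested genes. The members that rose were low and those that fell reached the top of the family: the higher members had means of 0.538 to 8.04 TPM in TPS lines, and the lower members had 2.89 to 85.5 TPM in EPS lines.

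**Figure D2:**
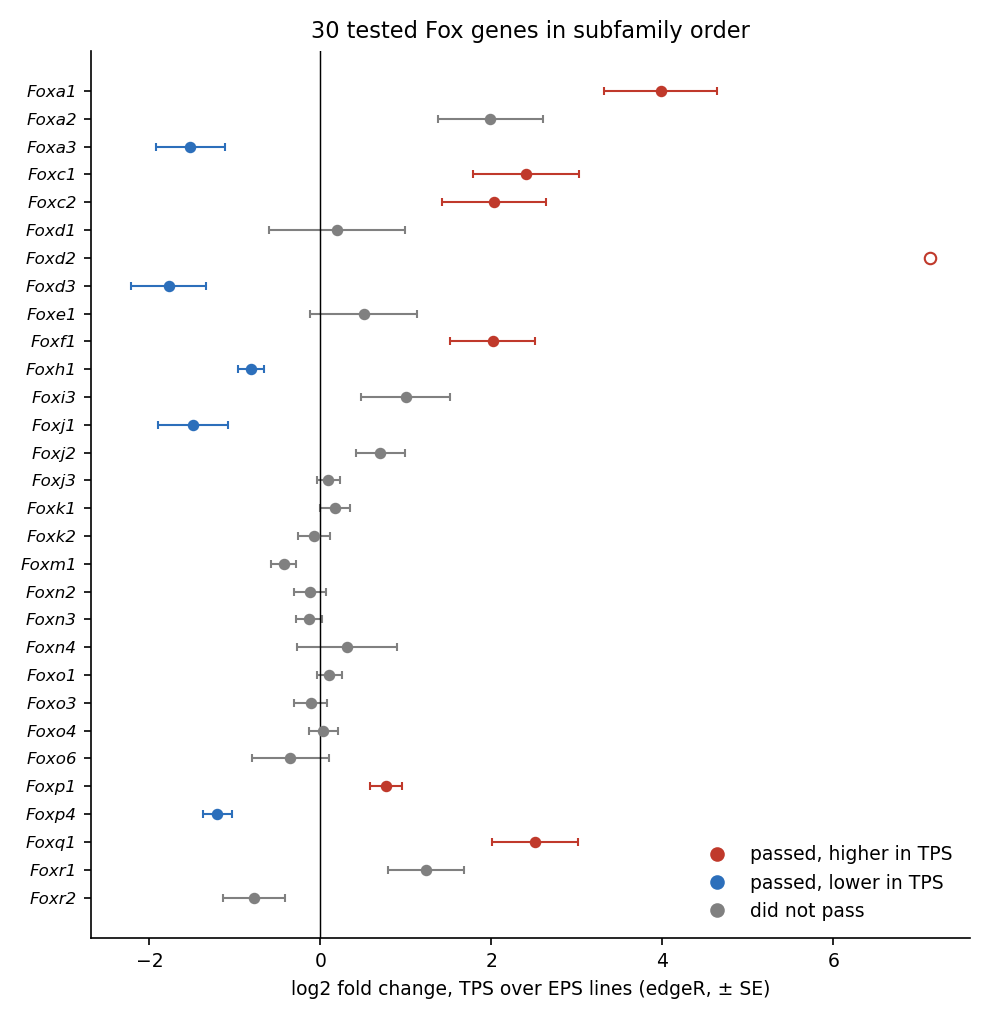
Log2 fold change of TPS over EPS lines for 30 tested Fox genes in subfamily order, with bars of 1 SE from edgeR; red passed as higher, blue as lower, grey did not pass. The open symbol is Foxd2, which had no count in EPS lines, so its fitted position depends on the model and has no bar; FoxK, FoxN and FoxO genes lie near 0.

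Foxp4 and Foxp1 belong to the subfamily of dimerising repressors that act in lung, heart, brain and lymphocytes, and they moved in opposite directions. Foxp4 stood at 59.9, 71.0 and 91.5 CPM in TPS lines 1 to 3 and at 173, 178 and 161 CPM in EPS lines 1 to 3. Every TPS line was below every EPS line. The log2 fold change was −1.20 (SE 0.17, edgeR adjusted p = 0.00478), a mean level 2.30 times as high in EPS lines, and it passed with each line left out in turn (adjusted p 0.00842 to 0.0214). Foxp1 stood at 34.5, 34.1 and 49.0 CPM in TPS lines and 21.8, 24.4 and 22.7 CPM in EPS lines. All TPS lines were above all EPS lines, TPS line 3 by the most. Its log2 fold change was 0.77 (SE 0.19, edgeR adjusted p = 0.0250). With a line left out, Foxp1 passed only without TPS line 1 or TPS line 2, and its adjusted p ran from 0.0364 to 0.0790. The TPM ratio of Foxp4 to Foxp1 was 4.84, 5.80 and 5.21 in TPS lines and 22.2, 20.3 and 19.8 in EPS lines, that is 5.28 ± 0.485 and 20.8 ± 1.23 (SD, n = 3), so Foxp4 remained the more abundant in every line. The remaining members of the subfamily were too low to test: Foxp2, the gene tied to speech, had 0.159 to 0.233 CPM in TPS lines and 0.0326 to 0.171 in EPS lines, and Foxp3, the factor of regulatory T cells, had 0.0777 to 0.222 and 0.0853 to 0.382 CPM.

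**Figure D3:**
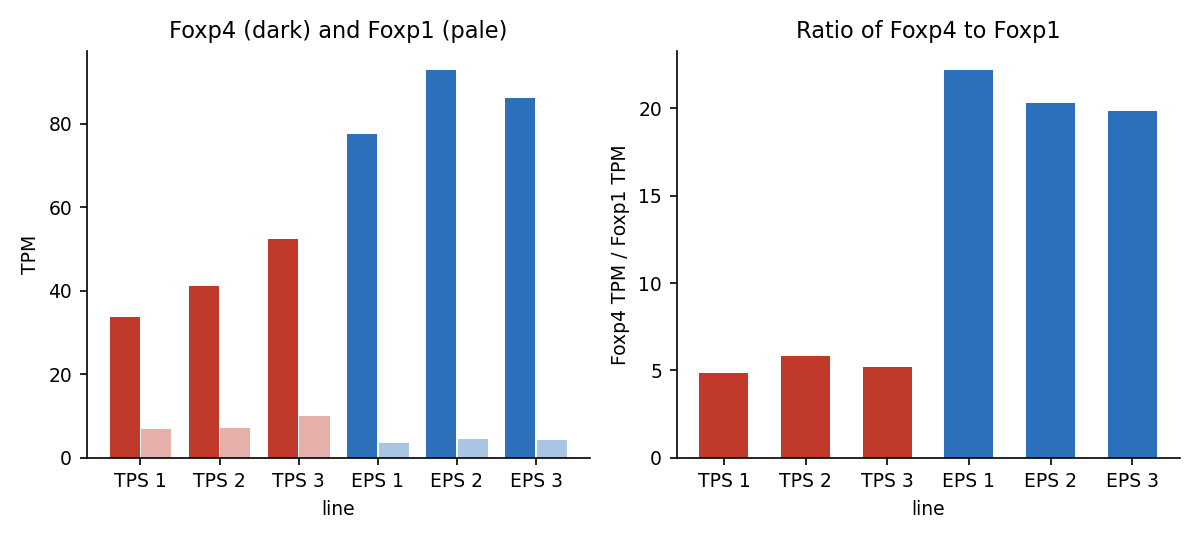
Left, TPM of Foxp4 (dark bars) and Foxp1 (pale bars) in each line; right, the TPM ratio of Foxp4 to Foxp1 in each line (TPS red, EPS blue, 1 bar a line). The ratio lay between 4.84 and 5.80 in TPS lines and between 19.8 and 22.2 in EPS lines.

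Foxh1, the DNA-binding partner of Smad2 and Smad3 in Nodal signalling, had 29.7, 26.1 and 22.7 CPM in TPS lines and 45.7, 44.0 and 48.4 CPM in EPS lines. The groups did not overlap. The log2 fold change was −0.81 (SE 0.15, edgeR adjusted p = 0.0114), and it passed with any line left out (adjusted p 0.0196 to 0.0424). In the Nodal list, 17 genes were tested, of which 0 were higher and 3, or 17.6%, lower (median log2 fold change 0.025), against 14.4% and 7.34% of all tested genes. The 3 were Gdf3, a ligand, with a log2 fold change of −1.22, Tdgf1, the Nodal co-receptor Cripto, with −0.92, and Acvr1b, a type I receptor, with −0.64. Nodal itself was at 45.5 to 87.3 CPM in TPS lines and 49.6 to 57.0 CPM in EPS lines and did not pass.

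Foxd3, which acts in the epiblast, in pluripotent stem cells and later in neural crest, had 6.19, 5.20 and 16.4 CPM in TPS lines and 36.2, 33.8 and 24.9 CPM in EPS lines. TPS line 3 and EPS line 3 were the nearest to each other, and the groups did not overlap. The log2 fold change was −1.77 (SE 0.44, edgeR adjusted p = 0.0273). The call held only without TPS line 3 or EPS line 3 among the fits with a line left out, with adjusted p from 0.00689 to 0.0781, and without TPS line 3 the log2 fold change was −2.47. Gm12688, a noncoding gene whose start lies 1316 bases from that of Foxd3, had 33, 11 and 12 counts in TPS lines and 62, 57 and 56 in EPS lines, a log2 fold change of −1.81 (SE 0.48, edgeR adjusted p = 0.0335). Foxd2, a gene of paraxial mesoderm and kidney mesenchyme, went the other way. It had 0.549, 0.492 and 0.444 CPM in TPS lines, which is 22, 19 and 14 counts, and 0 counts in each EPS line. Against 3 counts in an EPS line (0.0979 CPM where they weigh most, counting error only), its TPS mean was at least 5.06-fold higher, and its adjusted p from edgeR was 0.00624 (0.0172 to 0.0234 with a line left out), in fits that it too entered through its TPS lines only. Foxd1, a gene of kidney stroma, had 0.125, 1.99 and 1.30 CPM in TPS lines and 0.783, 1.32 and 0.882 CPM in EPS lines. Its groups overlapped, with TPS line 1 the lowest of all, and its log2 fold change of 0.19 was negative without TPS line 2 (−0.51). Foxd4 was not tested, at 0.0249 to 0.19 CPM in TPS lines and at most 0.0294 CPM in EPS lines.

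The FoxA genes, pioneer factors of endoderm and liver, split. Foxa1 had 0.823, 3.08 and 1.94 CPM in TPS lines and 0.131, 0.0588 and 0.171 CPM in EPS lines. The lowest TPS line, line 1, was above every EPS line. The mean was 16.2 times as high, the log2 fold change was 3.98 (SE 0.66, edgeR adjusted p = 0.00774; 0.00840 to 0.0332 with a line left out), in fits that it entered through its TPS lines only. Foxa2, which also marks the node and the floor plate, had 0.349, 0.673 and 0.540 CPM in TPS lines and 0.0326, 0.147 and 0.199 CPM in EPS lines. Its groups did not overlap, but it did not pass, with a log2 fold change of 1.99 (SE 0.62, edgeR adjusted p = 0.0554). Foxa3 had 0.748, 1.29 and 1.49 CPM in TPS lines and 4.34, 3.29 and 2.50 CPM in EPS lines. All TPS lines were below all EPS lines, with a log2 fold change of −1.52 (SE 0.40, edgeR adjusted p = 0.0333), which passed only without EPS line 3 among the fits with a line left out (0.0418 to 0.0894). On the TPM scale the sum of the subfamily was 3.91 ± 1.62 in TPS lines and 4.25 ± 0.613 in EPS lines, but Foxa3 gave most of it in EPS lines (4.03 ± 0.735 TPM) and Foxa1 and Foxa3 gave nearly the same in TPS lines (1.66 ± 0.977 and 1.63 ± 0.545 TPM). Of 16 tested genes in the list of endoderm genes, 7 were higher and 1 lower (43.8% and 6.25%, against 14.4% and 7.34% of all tested genes; median log2 fold change 1.80), among them Apob, an apolipoprotein of yolk sac and liver, at 3.43 and Gata6, the factor of primitive endoderm, at 2.74. One of the 7, Pdgfra, is also a fibroblast gene. Apob entered the test through its TPS lines only, at no more than 0.176 CPM in any EPS line.

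Foxc1 and Foxc2, factors of paraxial mesoderm and blood vessels, were both higher. Foxc1 had 0.923, 3.29 and 1.94 CPM in TPS lines and 0.163, 0.441 and 0.540 CPM in EPS lines, a log2 fold change of 2.41 (SE 0.62, edgeR adjusted p = 0.0321). Foxc2 had 0.449, 1.32 and 0.730 CPM in TPS lines and 0.261, 0.0882 and 0.256 CPM in EPS lines, a log2 fold change of 2.03 (SE 0.60, edgeR adjusted p = 0.0489). The groups of neither gene overlapped, and TPS line 2 was the highest in both. Foxc1 passed only without TPS line 1 when lines were left out (adjusted p 0.0277 to 0.0851), and Foxc2 passed in none of those fits (0.0524 to 0.144). Foxf1, a factor of lateral plate and extraembryonic mesoderm that responds to hedgehog signals, had 0.574, 0.932 and 0.698 CPM in TPS lines and 0.0979, 0.265 and 0.171 CPM in EPS lines, a log2 fold change of 2.02 (SE 0.50, edgeR adjusted p = 0.0266). Its groups did not overlap either, and the call held only without EPS line 2 (0.0471 to 0.0786). Foxc2 and Foxf1 entered these fits through their TPS lines only. Foxq1, known from hair, stomach and epithelial tumours, had 1.07, 1.53 and 2.38 CPM in TPS lines and 0.163, 0.382 and 0.313 CPM in EPS lines. Its groups did not overlap, and its log2 fold change of 2.51 (SE 0.50, edgeR adjusted p = 0.0137) passed with each line left out (0.0218 to 0.0498) but not with technical replicate 1 alone (edgeR adjusted p = 0.0872). Of the mesoderm list, 5 of 14 tested genes (35.7%, against 14.4% of all tested genes) were higher and 0 lower (median 1.26), led by Meox1, a somite factor, at 4.17, Pax3, a factor of somite and neural crest, at 3.62 and Kdr, a receptor of blood vessel precursors, at 2.27. Meox1 and Pax3 entered the test through their TPS lines only, at no more than 0.142 and 0.147 CPM in any EPS line. The hedgehog and lateral mesoderm list held 19 tested genes, of which 9 were higher (47.4%) and 2 lower (10.5%), with a median of 1.28. Of all tested genes 14.4% were higher and 7.34% lower. Those that passed were led by Osr1, a factor of intermediate and lateral mesoderm, at 3.38 and Gli1, the hedgehog-induced transcription factor, at −2.56. Gas1, a hedgehog co-receptor, followed at 2.35, and the other gene that fell was Gli2. Osr1 too entered the test through its TPS lines only, at no more than 0.142 CPM in any EPS line.

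Foxa1, Foxc1, Foxc2, Foxf1 and Foxq1 were compared line by line with the fibroblast genes, which were higher in TPS lines too. TPS line 1 had the highest fibroblast sum, 6495 CPM, and the lowest value of each of these 5 genes among TPS lines. These 5 are the higher members whose lowest TPS value was in that line, so the shared order follows from their choice. This order did not hold for the other higher members. Foxd2 was highest in TPS line 1, at 0.549 CPM. Foxp1 was lowest in TPS line 2, at 34.1 CPM, the TPS line with the lowest fibroblast sum (3573 CPM), and highest in TPS line 3, at 49.0 CPM. EPS line 1 had the lowest fibroblast sum, 343 CPM, with 1354 CPM for EPS line 2 and 1453 CPM for EPS line 3. Line 1 was the lowest EPS line for Foxc1, Foxf1, Foxq1 and Foxp1 but not for Foxa1 or Foxc2, and Foxd2 had no count in any EPS line. TPS line 2, the highest for Foxa1, Foxc1, Foxc2 and Foxf1, was the highest TPS line for 4 of 8 trophoblast genes (Krt8, Krt18, Hand1 and Gata3), 4 of 7 of neural crest (Tfap2a, Tfap2b, Pax3 and Ets1), 3 of 7 of primitive endoderm (Gata4, Gata6 and Sox17), 0 of 5 of endothelium and 0 of the 18 of fibroblasts. The part of other cell types in these results was not tested.

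**Figure D4:**
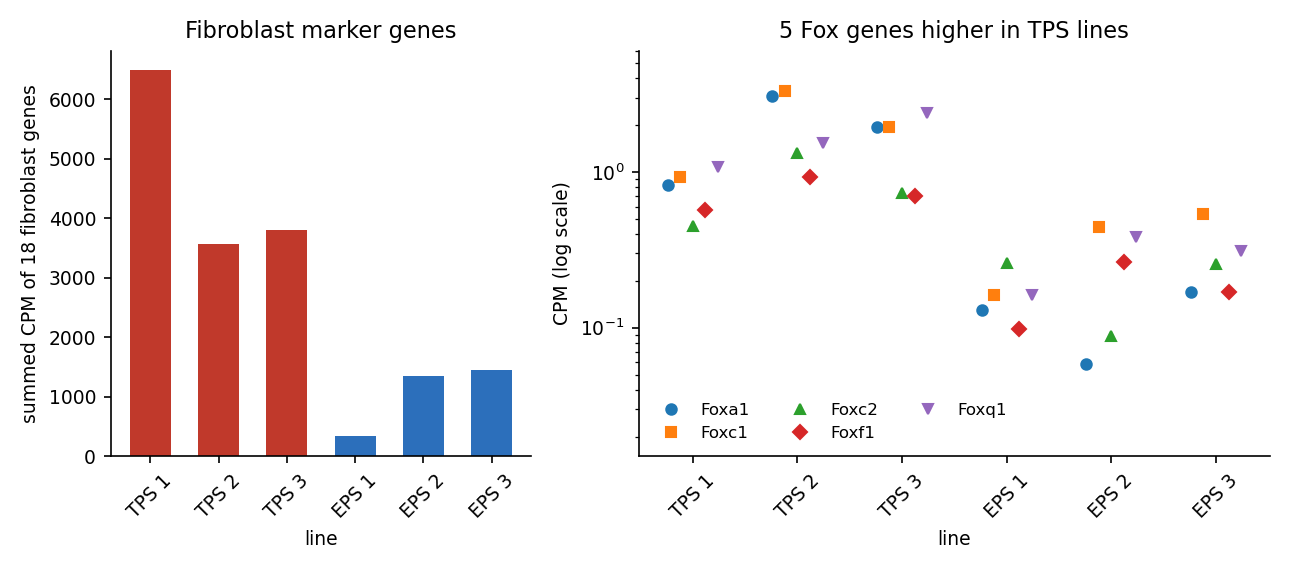
Left, summed CPM of the 18 fibroblast genes in each line on an axis from 0; right, CPM of 5 Fox genes in each line on a log axis (points set side by side within a line). TPS line 1 had the highest fibroblast sum (6495 CPM) and the lowest of the TPS values of the 5 genes drawn; Foxd2 and Foxp1, which are not drawn, were not lowest in that line.

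Foxj1, the master regulator of motile cilia, fell. It had 1.27, 0.828 and 1.14 CPM in TPS lines and 2.32, 4.53 and 2.28 CPM in EPS lines, without overlap, and EPS line 2 was far above the others. Its log2 fold change was −1.49 (SE 0.41, edgeR adjusted p = 0.0391), and it held only without EPS line 3 when lines were left out (0.0482 to 0.105). Of 20 tested genes of the ciliary list 4 were higher and 1 lower (median log2 fold change 0.20), which is 20.0% and 5.0% where all tested genes gave 14.4% and 7.34%. Ccno, a cyclin of multiciliated cell precursors, rose by 3.61, and Hydin, an axonemal protein, by 1.35. Dnaic2, a dynein chain, rose by 1.33, Tubb3, a neuronal tubulin rather than a ciliary gene, by 1.20, and Rsph1, a radial spoke protein, had −1.26. Foxj2 and Foxj3, which are broadly expressed, did not pass. Foxj2 had 12.7, 16.7 and 9.94 CPM in TPS lines and 6.26, 7.82 and 10.1 CPM in EPS lines (log2 fold change 0.70), with TPS line 3 inside the EPS range, and Foxj3 had 54.7, 55.3 and 55.6 CPM and 45.5, 55.3 and 54.6 CPM (0.092).

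**Figure D5:**
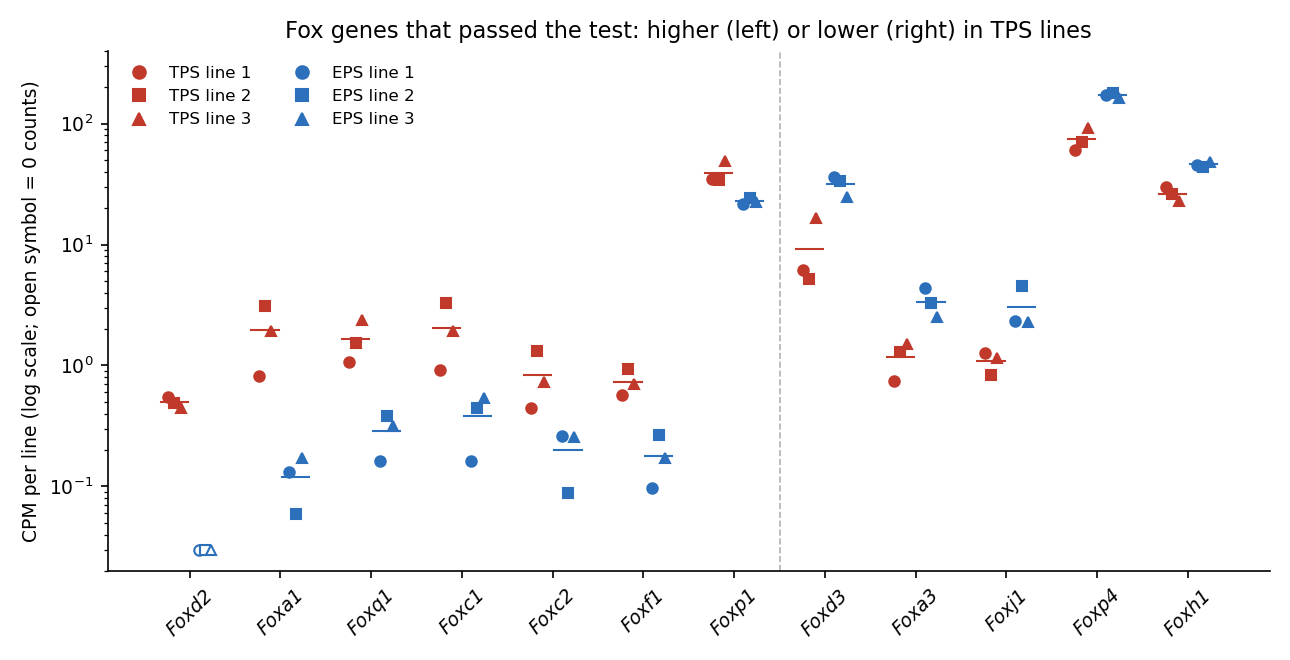
CPM on a log axis of the 12 Fox genes that passed the test, ordered by log2 fold change within each direction, for TPS lines (red) and EPS lines (blue); symbols mark lines 1 to 3, short bars are means, and open symbols stand for 0 counts. In all 12 genes the 2 groups are apart, and the groups come closest in ratio for Foxp1, with 34.1 CPM in TPS line 2 and 24.4 CPM in EPS line 2.

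The FoxO genes, the nuclear end of insulin and AKT signalling, did not pass in any member. Foxo1 had 33.3, 36.2 and 31.8 CPM in TPS lines and 31.2, 28.3 and 34.8 CPM in EPS lines (log2 fold change 0.10), and Foxo3 had 107, 95.5 and 73.6 CPM and 106, 113 and 80.7 CPM (−0.11). Foxo4 had 51.4, 55.5 and 59.0 CPM in TPS lines and 64.5, 44.2 and 53.3 CPM in EPS lines (0.035), and the brain-enriched Foxo6 had 3.57, 7.14 and 4.22 CPM and 7.63, 8.35 and 3.07 CPM (−0.35). The groups overlapped in all 4. The signs of Foxo3 and Foxo4 turned when 1 line was left out: to 0.020 for Foxo3 without TPS line 3, and to −0.018 and −0.11 for Foxo4 without TPS line 3 and EPS line 2. Upstream of them, 5 of 20 tested signalling genes were higher and 1 lower (median 0.13), among them Irs1, an adaptor of the insulin receptor, at 2.52, and the kinase Akt1 at 1.14, while Sgk1, another kinase that phosphorylates FoxO, had −0.87. Among 31 tested genes known as FoxO targets 3 were higher and 4 lower (median −0.077). Fbxo32, a ubiquitin ligase of muscle atrophy, rose by 2.65 and Ccnd2, a cyclin, by 1.73, and Bcl2l11, the proapoptotic Bim, rose by 1.56, while Cdkn1b, the cell cycle inhibitor p27, had −1.34. These shares stand against 14.4% higher and 7.34% lower over all tested genes.

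Foxm1 had 44.7, 47.2 and 56.5 CPM in TPS lines and 62.9, 64.7 and 72.2 CPM in EPS lines. All TPS lines were below all EPS lines, but the log2 fold change of −0.43 did not pass. Of 25 tested mitotic targets 1 was higher (4.0%; 14.4% of all tested genes) and 3 were lower (12.0%; 7.34% of all tested genes), with a median of −0.27, and in 14 of them all TPS lines lay below all EPS lines, a pattern held by 19.1% of all tested genes. Those that passed were Top2a, topoisomerase II, at −0.51, Bub1b, a spindle checkpoint kinase, at −0.46, and Birc5, survivin, at −0.41, while Cenpb, a centromere protein, rose by 0.79.

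Foxk1 and Foxk2 did not pass. Foxk2 had 102, 111 and 108 CPM in TPS lines and 85.9, 140 and 113 CPM in EPS lines (log2 fold change −0.076, or 0.088 without EPS line 2), and Foxk1 had 32.1, 33.8 and 38.3 CPM and 25.2, 32.5 and 34.8 CPM (0.17). The TPS lines lay within the EPS range for Foxk2 and overlapped it for Foxk1. Among 14 tested cofactors of FoxP and FoxK, Nfatc1, the partner of FoxP proteins in lymphocytes, rose by 1.92 and Dvl2, which FoxK proteins carry to the nucleus, had −0.78, and the other 12 did not pass (median of the 14, −0.16), so that 7.14% passed in each direction, beside 14.4% and 7.34% of all tested genes. The tested FoxN genes did not pass. Foxn2 had 65.6, 44.9 and 42.8 CPM in TPS lines and 53.1, 57.2 and 57.1 CPM in EPS lines (−0.13). Foxn3, a checkpoint repressor, had 31.8, 40.9 and 38.7 CPM and 39.3, 44.1 and 39.1 CPM (−0.14), and Foxn4, a factor of retina and spinal cord, had 6.39, 4.63 and 6.0 CPM and 2.97, 9.12 and 1.65 CPM (0.31). Foxn4 differed most among the EPS lines, and its sign turned without EPS line 3 (−0.11). Foxn1, the thymus factor, was not tested, at no more than 0.317 CPM in any line.

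Foxr1, an oocyte gene, had 4.77, 2.33 and 2.10 CPM in TPS lines and 1.63, 0.912 and 1.37 CPM in EPS lines, without overlap, and a log2 fold change of 1.24 (SE 0.44, edgeR adjusted p = 0.0846; 0.0346 with DESeq2). Foxr2, an X-linked testis gene, had 2.89, 1.73 and 1.62 CPM and 3.52, 2.85 and 4.35 CPM (−0.78), with TPS line 1 just above EPS line 2. Foxi3, a factor of ear and pharyngeal ectoderm, had 2.64, 4.14 and 8.22 CPM and 1.6, 2.00 and 3.90 CPM, with EPS line 3 inside the TPS range (1.00, SE 0.52, edgeR adjusted p = 0.204). Foxe1, the thyroid factor, had 0.150, 0.673 and 0.825 CPM and 0.424, 0.441 and 0.284 CPM (0.51), and TPS line 1 was below all EPS lines.

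The 13 members that were not tested had 1 to 99 counts over all 12 libraries. Foxb1, a factor of the diencephalon, had the most, with 0.0998, 1.58 and 0.984 CPM in TPS lines and 0, 0.0294 and 0.0569 CPM in EPS lines, and Foxl2, the factor of ovarian granulosa cells, had 0.225, 1.04 and 0.762 CPM and 0.0653, 0.206 and 0.0569 CPM. In both all TPS lines were above all EPS lines, with TPS line 1 the lowest of them. Foxs1, known from pericytes and sensory neurons, had 0.19 to 0.518 CPM in TPS lines and 0 to 0.206 CPM in EPS lines, and Foxf2, the paralogue of Foxf1, had 0.150 to 0.698 and 0.0569 to 0.206 CPM. The lens factor Foxe3, the inner ear factor Foxi1, Foxi2, Foxb2 and the gut mesenchyme factor Foxl1 had 0 counts in all EPS lines and at most 0.0518 CPM in a TPS line. For these 5 a difference was not detectable at this depth. Foxb1 and Foxl2 were too low for the filter but were higher in fits that kept them: with DESeq2 (adjusted p = 0.00133 and 0.0269) and with edgeR and no filter on low counts (0.00217 and 0.0264). In the fits with a line left out they entered, where they did, through their TPS lines only. There both passed without TPS line 1, their lowest TPS line (edgeR adjusted p = 0.0110 and 0.0316), and neither passed with an EPS line left out (edgeR adjusted p 0.0591 to 0.0867 for Foxb1 and 0.0582 to 0.130 for Foxl2).

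Of the 7 higher members, 5 lie in groups of neighbouring Fox genes (starts at most 300 kb apart): Foxq1 and Foxc1 on chromosome 13 with Foxf2 between them, Foxf1 and Foxc2 on chromosome 8 with Foxl1 beside them, and Foxd2 on chromosome 4 with Foxe3. The third gene of the groups on chromosomes 13 and 8 and the second gene on chromosome 4 were too low to test. The groups on chromosomes 13, 8 and 4 hold 3, 3 and 2 of the 44 members, and 2, 2 and 1 of the 31 tested. Foxc2, Foxd2 and Foxf1 entered the test through their TPS lines only. Within 500 kb of these groups 12 other coding genes were tested, 0 around the first group, 8 around the second and 4 around the last, and of these 2 were higher, where 14.4% of all tested genes were, both far from the members: 1700018B08Rik starts 459.9 kb from Foxf1 and Cyp4a12b 502.8 kb from Foxd2. The nearest tested genes did not pass: Mthfsd, 24.01 kb from Foxf1, had a log2 fold change of −0.39, and Cmpk1 and Stil, 78.4 and 91.3 kb from Foxd2, had 0.088 and −0.33. Irf8, the best known neighbour of Foxf1, did not pass either (0.95). Noncoding genes that share a start region with members mostly had few counts. Of Fendrr, the transcript divergent from Foxf1, 4, 1 and 0 counts were seen in TPS lines and 0, 1 and 0 in EPS lines, and of Foxd2os 1, 6 and 5 counts and 5, 1 and 1 counts. Foxl2os had 3, 13 and 1 counts in TPS lines and 1, 1 and 0 in EPS lines, and Gm26770, antisense near Foxm1, was tested and did not pass. Flicr, beside Foxp3, had up to 16 counts in a line, and Gm12446, Gm26839, Gm15556, B230323A14Rik, Gm26826, 1700018A04Rik, 9030622O22Rik and AC128703.1 had at most 4.

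Promoter windows, the 250 bases before the start in RefSeq's annotation of GRCm38.p6, were given for 28 of the 44 members, in 33 entries, and for 7 of the 12 that passed. The windows of Foxa1, Foxc1 and Foxd2, which rose from near 0, and of Foxd3 and Foxa3, which fell, are printed 5′ to 3′ on the gene's strand, with matches on either strand to any of the motifs searched in capitals: GGGCGG as the GC box, CCAAT as the CCAAT box, TATAAA as the TATA box, the forkhead cores TGTTTAC and also TGTTTGC, the retinoic acid receptor site AGGTCA, and the TCF and LEF site CTTTGAT.
Foxa1, chr12:57546112-57546361, minus strand: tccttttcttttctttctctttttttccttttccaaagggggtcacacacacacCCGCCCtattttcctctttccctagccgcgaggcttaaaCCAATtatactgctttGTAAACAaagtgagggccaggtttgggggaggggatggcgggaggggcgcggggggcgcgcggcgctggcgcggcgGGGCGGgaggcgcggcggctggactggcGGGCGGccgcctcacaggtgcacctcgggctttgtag
Foxc1, chr13:31806396-31806645, plus strand: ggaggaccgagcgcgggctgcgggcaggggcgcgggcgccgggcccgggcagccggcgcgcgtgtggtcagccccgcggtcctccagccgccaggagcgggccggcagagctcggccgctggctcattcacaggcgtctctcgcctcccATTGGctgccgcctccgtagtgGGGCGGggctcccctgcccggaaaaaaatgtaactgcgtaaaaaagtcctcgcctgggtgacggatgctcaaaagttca
Foxd2, chr4:114908899-114909148, minus strand: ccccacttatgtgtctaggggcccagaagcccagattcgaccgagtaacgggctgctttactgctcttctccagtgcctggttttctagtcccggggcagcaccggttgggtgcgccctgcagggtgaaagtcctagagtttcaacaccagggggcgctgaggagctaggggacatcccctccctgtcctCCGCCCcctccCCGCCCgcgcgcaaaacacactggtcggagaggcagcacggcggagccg
Foxd3, chr4:99656049-99656298, plus strand: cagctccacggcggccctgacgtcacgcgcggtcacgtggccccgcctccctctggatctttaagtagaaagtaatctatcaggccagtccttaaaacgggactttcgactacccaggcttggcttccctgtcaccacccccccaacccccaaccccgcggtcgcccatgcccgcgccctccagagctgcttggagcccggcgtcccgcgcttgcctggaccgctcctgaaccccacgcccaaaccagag
Foxa3, chr7:19023540-19023789, minus strand: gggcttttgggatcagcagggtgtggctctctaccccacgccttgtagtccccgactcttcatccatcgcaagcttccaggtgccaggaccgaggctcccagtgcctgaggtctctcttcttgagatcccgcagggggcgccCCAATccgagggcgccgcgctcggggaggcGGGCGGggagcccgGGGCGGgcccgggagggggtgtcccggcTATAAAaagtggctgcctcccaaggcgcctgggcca
The windows of the family were rich in G and C, with a median of 62.0% against 52.4% in all 32841 windows, and held a median of 16 CpG against 6. The GC box was in 23 of 33 entries (69.7%; 32.7% of all windows), CCAAT in 14 (42.4%; 33.9%) and TATAAA in 3 (9.09%; 12.4%). The forkhead core TGTTTAC was in the Foxa1 window alone (3.03%; 3.17% of all) and TGTTTGC in those of Foxj3 and Foxp1 (6.06%; 4.30%). AGGTCA was in 4 entries (12.1%; 14%), none of a member that passed, and CTTTGAT in 0 (3.21% of all). Some members have more than 1 entry, so the entries are not independent.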

How the data were processed

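The authors trimmed reads with fastp 0.19.7, mapped them to GRCm38 with STAR 2.7.3a and deposited raw counts per gene, which were used here. The counting tool, annotation and use of strand are not given in the sources used here, so reads shared by overlapping genes may be split; 13 of the members overlap exons of another gene. Identifiers were matched to GENCODE M21 without version (55141 of 55401). Counts of both libraries of a line were summed, and edgeR 4.0.16 (R 4.3.3) was run with TMM factors, filterByExpr (minimum count 10, total 15) and no covariate. SE is the log2 fold change divided by the root of F. Tested on simulated counts, the script called 168 of 191 genes changed 4-fold, with 6 false calls among 17180 tested. The spread between lines there was set by a dispersion of 0.106, and recovery of members at their own spread was not tested. Sampling noise alone did not account for the difference between the 2 libraries of a line (chi-square per degree of freedom 2.58 to 22.3), and the tested members by a median of 0.078 to 0.17 in log2 between them. With 3 against 3 lines no permutation test can go below 0.1. Floors cover counting error only, whereas SE and its bars also take in the spread between lines. Copies were sought with blastn 2.17.0. Alternatives were DESeq2 1.42.0, limma-voom (limma 3.58.1), other factors, filters, thresholds and samples. All members but 1 are named, and that member and some results of other genes are not reported here. Tested members have their value in each line, untested ones a range (Foxb1 and Foxl2 each line); those that passed, or had a log2 fold change of at least 1 in size, have full statistics, and each list names at most its 3 largest changes, with others named after their values were seen. The members and lists were chosen with earlier results of these data known.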

Additional observations from a re-analysis of the deposited data

How the results depend on the processing

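Across 539 fits of single members under the alternatives, 459 kept direction and side of the threshold, 57 no longer passed, 7 newly passed and 16 turned sign, none of these a member that had passed. The count of higher members was 7 and became 10 with DESeq2 (10.5% of all genes tested in that fit), 9 with no filter on low counts (10.1%), 2 with at least 1 CPM in 3 lines (14.1%; fewer members tested), 2 and 4 with technical replicate 1 or 2 alone (12.8% and 12.9%), 2 at an adjusted p under 0.01 (5.0%) and 3 to 7 with each line left out (8.98% to 12.5%). It was 7 with 12 libraries as samples too (26.2%), where Foxi3, Foxj2 and Foxr1 newly passed, and Foxr1 also did with DESeq2. The 7 without TPS line 1 took in Foxb1 and Foxl2, while Foxc2 and Foxf1 no longer passed. The count of lower members was 5 and became 7 with 12 libraries as samples (23.3%; Foxm1 and Foxr2 added), 3 with technical replicate 2 alone (6.6%), 1 at an adjusted p under 0.01 (1.48%) and 2 to 5 with each line left out (2.74% to 5.76%). Lines of the same number did not deviate together (r −0.116 to 0.0423), so the numbers were not taken as pairs, and with the line number as a replicate block 4 members were higher and 3 lower (9.81% and 4.13% of all tested genes). Foxc2, Foxd2 and Foxf1 with technical replicate 1 alone or with 12 libraries as samples, and Foxd2 with technical replicate 2 alone, were too low to be tested. Foxc1, Foxj1 and Foxq1 no longer passed with technical replicate 1 alone, Foxa3, Foxc2, Foxf1 and Foxj1 with technical replicate 2 alone, Foxa3, Foxc2, Foxf1, Foxj1 and Foxp1 with the block, Foxc2 with limma-voom (adjusted p = 0.0660) and Foxj1 without composition factors (edgeR adjusted p = 0.0540), where Foxa2 newly passed (0.0486). Without composition factors the median of all genes moved to 0.14 and 80.0% of calls were higher, against 66.2%. Over the 9 pathway lists together, 35 higher genes became 8 at 0.01 and 17 to 33 with a line left out, and 16 lower genes became 7 without composition factors, 37 with 12 libraries as samples, 9 with technical replicate 1 alone, 3 at 0.01 and 6 to 12 with a line left out. On CPM, which is not per length, shares of the family in TPS and EPS lines were 3.67% and 5.42% for Foxh1. They were 7.73% and 6.38% for Foxo4, 12.9% and 11.7% for Foxo3, 10.3% and 20.1% for Foxp4 and 1.28% and 3.71% for Foxd3. Signs turned for uncalled members only. With a line left out, the log2 fold change ran from −0.51 to 0.72 for Foxd1, −0.019 to 0.12 for Foxj3, −0.26 to 0.088 for Foxk2, −0.11 to 1.28 for Foxn4, −0.26 to 0.020 for Foxo3 and −0.11 to 0.16 for Foxo4. Foxd1 was at −0.51 with limma-voom, −0.32 with technical replicate 1 and −0.27 with the block, Foxe1 at −0.062 with technical replicate 2 and Foxo4 at −0.010 with technical replicate 1. Without composition factors, Foxk2 was at 0.066, Foxn2 at 0.017, Foxn3 at 0.011 and Foxo3 at 0.036. Where no construction above explains a change, the cause was not tested.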
